A study of Mus musculus with 11 samples.

Results

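Chemokines are small secreted proteins that direct the migration of cells, and they act through receptors of the G protein-coupled family. The genes described here are the protein-coding genes whose name is Ccl, Cxcl, Ccr, Cxcr or Ackr followed by a number, together with Xcl1, Xcr1, Cx3cl1, Cx3cr1, Pf4 and Ppbp. There were 55 such genes among the 34570 genes listed for either cell type, 45 of 31518 in mouse embryonic stem cells (mESCs) and 52 of 29450 in mouse embryonic fibroblasts (MEFs), with 42 in both. Cxcl11 was listed as a polymorphic pseudogene and was therefore not a member.

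Poly(A)+ RNA-seq was carried out on 2 Atxn7l3+/+ (WT) and 3 Atxn7l3-/- mESC libraries and on 3 WT and 3 Atxn7l3-/- MEF libraries, to ask which genes depend on ATXN7L3, a subunit that the SAGA-related deubiquitylation modules need to remove ubiquitin from histone H2B. All mice were DBA/2 x C57BL/6, and the null allele was constitutive, so that every cell of a mutant culture carries it. The mESCs came from blastocysts and were grown first on feeder cells and then without them, in serum with LIF, PD0325901 and CH99021, whereas the MEFs came from single E10.5 embryos whose head and gut had been removed, and were grown in serum alone. No treatment was given, and the methods speak of biological replicates without saying whether each mESC library was a separate line. If they were not, p-values for mESCs measure only the spread between these samples.

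Library totals ranged from 34515342 to 49602605 counts, so that 3 counts, taken as the floor, were worth 0.0605 to 0.0869 CPM, the count of a gene scaled to the size of its library. Atxn7l3 itself was at 222 and 223 CPM in WT mESCs and at 3.91, 1.79 and 0.976 CPM in Atxn7l3-/- mESCs. In MEFs it was at 79.7, 104 and 92.9 CPM in the WT libraries and still at 49.2, 49.5 and 67.3 CPM in the libraries labelled Atxn7l3-/- (edgeR log2 fold change −0.74, adjusted p = 0.0715), so the RNA counts show a reduction and not a loss there. The study itself reported no detectable ATXN7L3 protein in either mutant cell type, and a strong rise of ubiquitylated histone H2B. WT MEF replicate 3 had Xist at 300 CPM and almost no RNA of Y-linked genes, unlike the other 5 MEF libraries, and Atxn7l3-/- mESC replicates 1 and 2 had little Y-linked RNA.

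Marker genes of the labelled cell types were present, with a summed level of 19750 to 56206 CPM for 12 fibroblast genes in MEFs and of 5205 to 6211 CPM for 10 pluripotency genes in mESCs. Other cell types were checked in the same way. Of 11 mesothelial genes, 9 were higher in the libraries labelled Atxn7l3-/- (Krt8 and Krt19 did not pass the test), and their sum was 22.8 to 48.4 CPM in WT against 6109 to 8587 CPM, with Upk3b, Msln, Wt1 and Lrrn4 among them. The sum of 15 macrophage genes was 1103, 1295 and 633 CPM in WT replicates 1 to 3 and 5712, 2071 and 824 CPM in the labelled Atxn7l3-/- replicates 1 to 3, and without Lyz2 it was 623, 692 and 319 CPM against 1022, 255 and 164 CPM. Of the 15 macrophage genes 0 passed in edgeR, 1 had an unadjusted p under 0.05 and DESeq2 called 1. The sum of 11 endothelial genes was 75.2, 41.4 and 20.8 CPM in WT and 22.6, 14.5 and 11.9 CPM in the mutant MEFs (0 of 8 tested passed in edgeR, 2 at an unadjusted p under 0.05, 3 in DESeq2), and lymphoid markers summed to at most 3.60 CPM. In mESCs the fibroblast sum was 1590 and 2717 CPM in WT and 3594 to 6086 CPM in Atxn7l3-/-, where 3 of 11 tested genes were higher. Most of this sum was Fn1, at 1524 to 2530 CPM in WT and 3190 to 5703 CPM in Atxn7l3-/-, which did not pass (edgeR adjusted p = 0.118). In these bulk cultures, fewer cells of a type and less RNA per cell cannot be told apart.

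Ligands of the CC and CXC families differ in the spacing of their first cysteines. The CX3C ligand Cx3cl1 is made as a membrane-bound protein. Conventional receptors couple to G proteins and drive movement, whereas the atypical receptors Ackr1 to Ackr4 bind chemokines without such coupling and are best known for removing or transporting them. Fibroblasts are a well-known source of Cxcl12, Ccl2 and Ccl7, and macrophages of Ccl3, Ccl4, Ccl6 and Ccl9, and macrophages also carry Cx3cr1. Many inflammatory chemokine genes are known targets of NF-kB and of interferon-regulated factors.

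Of the 8 members that passed the test in MEFs (adjusted p of 0.05 or less over all genes), all but Ccl2 and Ccl7 have an entry among RefSeq promoters (GRCm38.p6), and the 250 bases before their start are shown because the results turn on these genes. Capitals mark every match, on either strand, to the motifs searched: the NF-kB consensus, the AP-1 site TGACTCA or TGAGTCA, the interferon-stimulated response element GAAANNGAAA, the gamma-activated site TTCNNNGAA, TATAA and the GC box GGGCGG. Ccl20 rose, and its window is chr1:83116516-83116765 on the plus strand.
Ccl20: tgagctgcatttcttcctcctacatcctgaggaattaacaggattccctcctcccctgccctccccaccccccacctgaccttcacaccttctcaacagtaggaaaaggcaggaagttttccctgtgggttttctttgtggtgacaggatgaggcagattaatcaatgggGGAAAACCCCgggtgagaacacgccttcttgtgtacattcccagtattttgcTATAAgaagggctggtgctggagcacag
Cx3cl1 and Ccl17 are neighbours that both fell, at chr8:94771930-94772179 and chr8:94810203-94810452, both on the plus strand.
Cx3cl1: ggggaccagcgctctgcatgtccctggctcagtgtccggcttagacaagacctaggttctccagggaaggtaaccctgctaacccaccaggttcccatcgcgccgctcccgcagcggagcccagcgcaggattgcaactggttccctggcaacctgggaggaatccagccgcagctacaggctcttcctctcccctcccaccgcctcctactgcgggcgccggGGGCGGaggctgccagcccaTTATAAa
Ccl17: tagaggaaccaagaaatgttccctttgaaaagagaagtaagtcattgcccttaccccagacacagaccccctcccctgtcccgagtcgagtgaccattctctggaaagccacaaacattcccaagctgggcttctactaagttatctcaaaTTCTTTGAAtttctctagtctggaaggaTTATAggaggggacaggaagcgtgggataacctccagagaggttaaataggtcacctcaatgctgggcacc
Cxcl14 fell in MEFs and lies on the minus strand at chr13:56296552-56296801.
Cxcl14: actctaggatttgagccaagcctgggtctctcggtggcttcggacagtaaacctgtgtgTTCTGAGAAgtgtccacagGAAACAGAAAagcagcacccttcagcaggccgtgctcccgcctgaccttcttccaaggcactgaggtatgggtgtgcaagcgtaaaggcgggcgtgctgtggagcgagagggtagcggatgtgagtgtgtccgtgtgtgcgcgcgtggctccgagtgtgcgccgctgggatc
The atypical receptors Ackr3, on the plus strand at chr1:90203730-90203979, and Ackr4, on the minus strand at chr9:104126644-104126893, had the largest falls among the members that passed.
Ackr3: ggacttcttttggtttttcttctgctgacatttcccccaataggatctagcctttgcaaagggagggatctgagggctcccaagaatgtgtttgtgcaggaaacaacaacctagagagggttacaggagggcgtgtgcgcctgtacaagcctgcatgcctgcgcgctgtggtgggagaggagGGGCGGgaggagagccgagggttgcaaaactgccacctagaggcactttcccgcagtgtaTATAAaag
Ackr4: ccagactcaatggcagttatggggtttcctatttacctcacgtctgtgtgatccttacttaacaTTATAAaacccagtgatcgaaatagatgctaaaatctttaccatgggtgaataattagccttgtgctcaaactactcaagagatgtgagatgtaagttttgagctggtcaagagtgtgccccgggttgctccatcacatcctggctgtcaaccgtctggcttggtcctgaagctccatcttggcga

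The NF-kB match in Ccl20 begins 80 bases before the start and reads on the minus strand, and none of the 5 members that fell holds one. The interferon-type element was found in Cxcl14 alone of these windows, 172 bases before the start, and gamma-activated sites in Cxcl14 and Ccl17. TATAA stood 28 bases before the start in Ccl20, 8 in Ackr3 and 6 in Cx3cl1, and at other distances in Ackr4 and Ccl17. Over the 42 members with an entry, 9 (21.4%) held the NF-kB consensus, against 1643 of all 32851 windows. TATAA was in 42.9% of members against 22.8% of windows, the AP-1 site in 9.52% against 4.46%, the interferon-stimulated element in 4.76% against 2.98%, the gamma-activated site in 4.76% against 7.02% and the GC box in 19.0% against 32.7%. These are matches of letters and not binding sites.

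In MEFs, 29 of the 52 members had enough counts to be tested, and 28 had a median above 10 deposited normalized reads per kb, the level the study took as expressed. The 23 untested members had at most 613 counts over the 6 libraries (Cxcl15), and 9 of them had 10 counts or fewer. Compared with WT, 3 members were higher and 5 lower in the libraries labelled Atxn7l3-/-, by edgeR's quasi-likelihood test adjusted over 15958 genes. The shares of all genes tested were 5.01% higher and 4.39% lower, against 10.3% and 17.2% of the 29 members. The median log2 fold change of the members was −0.03 and that of all genes −0.06. Counted without a test, all 3 mutant libraries lay above all 3 WT libraries for 3 members and below them for 7, against 20.0% and 19.8% of all genes tested.

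**Figure D1:**
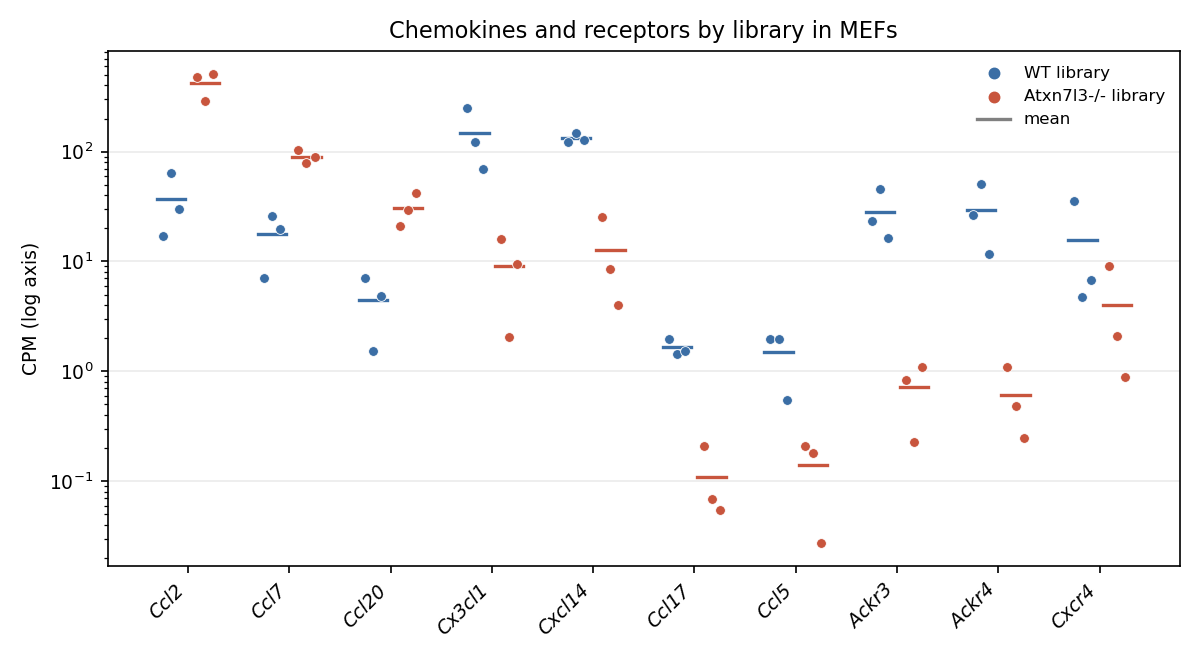
CPM on a log axis for 10 members in the 3 WT and the 3 labelled Atxn7l3-/- MEF libraries, with a line at each group's mean. Ccl2, Ccl7 and Ccl20 lie higher in every mutant library, Cxcr4 overlaps, and the remaining 6 lie lower in every mutant library.

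Ccl2, the main ligand that draws monocytes, was at 17.0, 64.1 and 29.9 CPM in WT replicates 1 to 3 and at 477, 291 and 506 CPM in the mutant ones. The groups did not overlap, and the mean rose 11.5-fold (log2 fold change 3.52 ± 0.54 SE, edgeR adjusted p = 0.0189, n = 3 each). Ccl7, which shares the receptor Ccr2 with Ccl2, was at 7.06, 26.0 and 19.8 CPM in WT and 102, 79.0 and 89.0 CPM in the mutant. It rose 5.12-fold (2.36 ± 0.47, edgeR adjusted p = 0.0333), and its mutant libraries lay within a narrow range. With a correction for GC content the adjusted p was 0.0418 for Ccl2 and 0.0865 for Ccl7, and with the replicate block added 0.0567 and 0.0936. Ccl2 (chr11:82035571-82037453) and Ccl7 (chr11:82045712-82047525) lie 8.26 kb apart in mm10. The next member along, Ccl12, 38.9 kb further on, was at 0.632 to 2.26 CPM in WT and 0.228 to 5.45 CPM in the mutant, which overlap (log2 fold change 0.67, edgeR adjusted p = 0.681). Their receptor Ccr2 was too low to be tested, with 4 to 21 counts in the WT libraries and 3 to 23 in the mutant ones.

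Ccl20, the ligand of Ccr6, was at 7.06, 1.53 and 4.84 CPM in WT and at 20.98, 29.1 and 41.8 CPM in the mutant. Every mutant library was above every WT library, a 6.84-fold difference of the means (log2 fold change 2.77 ± 0.59, edgeR adjusted p = 0.0391). It passed in 1 of the 6 fits that each left out 1 library, against 4 for Ccl2 and 3 for Ccl7, and it alone of the 3 kept its call with a correction for GC content together with the replicate block (adjusted p = 0.0382).

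Cx3cl1, whose membrane-bound form can hold cells that carry Cx3cr1, was at 252, 123 and 69.8 CPM in WT and at 15.9, 2.05 and 9.45 CPM in the mutant. The groups did not overlap, and the mean was 16.2-fold lower (log2 fold change −4.02 ± 0.84, edgeR adjusted p = 0.0378), although in 0 of the 6 fits without 1 library did it pass (adjusted p 0.0597 to 0.0727 by edgeR). Cxcl14, a ligand made by many epithelia and stromal cells, was at 123, 147 and 127 CPM in WT and at 25.3, 8.51 and 4.04 CPM in the mutant. The 3 WT libraries were within a narrow range, and the mean was lower by an order of magnitude (log2 fold change −3.39 ± 0.66, edgeR adjusted p = 0.0321). Cxcl14 passed in 2 of the 6 fits without 1 library (edgeR adjusted p up to 0.110). Ccl17, a ligand of Ccr4, was at 1.97, 1.45 and 1.53 CPM in WT and at 0.208, 0.0684 and 0.0549 CPM in the mutant (9, 3 and 2 counts). It was 14.9-fold lower (−3.85 ± 0.63, edgeR adjusted p = 0.0217) and passed in 3 of the 6 fits without 1 library. In mm10 Ccl17 starts 28.0 kb beyond the end of Cx3cl1 (chr8:94772009-94782427). Ccl22, the member on the other side of Cx3cl1, was listed for mESCs only.

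Ccl5, a ligand of Ccr1 and Ccr3, was at 1.97, 1.98 and 0.545 CPM in WT and at 0.208, 0.182 and 0.0275 CPM in the mutant. The libraries did not overlap, but the test missed the threshold (log2 fold change −3.38 ± 0.84, edgeR adjusted p = 0.0527), and passed it with the replicate number as a block (adjusted p = 0.0221) and with DESeq2 (0.000988). The neutrophil ligand Cxcl2 was at 6.89, 14.1 and 8.40 CPM in WT and at 3.97, 3.81 and 5.69 CPM in the mutant, without overlap (−1.13 ± 0.41, edgeR adjusted p = 0.115, DESeq2 adjusted p = 0.0430). With the block, 3 members were higher and 7 lower, the additional ones being Ccl5 and Cxcr4, against 5.50% and 8.49% of all genes. DESeq2 called 3 higher and 10 lower, against 8.15% and 11.9% of all genes, the further ones being Ccl5, Cxcl2, Ackr1, Cxcl15 and Ppbp.

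Both tested atypical receptors were almost absent from the mutant libraries. Ackr3, which binds and removes Cxcl12, was at 23.1, 45.4 and 16.4 CPM in WT and at 0.831, 0.228 and 1.10 CPM in the mutant. That is a 39.3-fold lower mean (log2 fold change −5.30 ± 0.73, edgeR adjusted p = 0.0147). Ackr4, which removes Ccl19, Ccl21 and Ccl25, was at 26.3, 50.3 and 11.6 CPM in WT and at 1.08, 0.479 and 0.247 CPM in the mutant, with a 48.7-fold lower mean (−5.59 ± 0.81, edgeR adjusted p = 0.0164). For both genes the highest mutant library was more than an order of magnitude below the lowest WT library. The endothelial marker sum given above was lower in each mutant library than in the WT library of its number, and with the replicate block 1 of the 8 tested genes was lower, Kdr (log2 fold change −2.34, edgeR adjusted p = 0.0274). With that block Tek, Esam and Emcn had positive log2 fold changes (2.03, 1.27 and 0.41) and did not pass. Pecam1, Cdh5, Erg and Egfl7 had negative ones and did not pass either. The part of these markers in the values of Ackr3, Ackr4 and Cx3cl1 was not tested. Ackr1, which binds many inflammatory ligands, had 43, 17 and 10 counts in WT and 0, 0 and 4 in the mutant. The count filter before edgeR left it out, and DESeq2 called it lower (log2 fold change −3.84, adjusted p = 0.0292). Ackr2 had 1 to 4 counts in every library.

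Cxcl12, the ligand that holds many progenitor cells in place, was at 103, 1239 and 597 CPM in WT and at 78.9, 123 and 1688 CPM in the mutant. It varied over an order of magnitude within each genotype, and no change could be called (log2 fold change −0.04 ± 1.29, edgeR adjusted p = 0.986). Its signalling receptor Cxcr4 was at 35.7, 4.74 and 6.83 CPM in WT and at 9.12, 2.08 and 0.879 CPM in the mutant. These overlap (−1.97 ± 1.09, edgeR adjusted p = 0.250), and the difference passed with the replicate block (adjusted p = 0.0436). Each mutant library was below the WT library of its own number.

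Among the ligands as a whole, the summed level per kb was 31234, 42475 and 22917 normalized reads per kb in WT replicates 1 to 3 and 39262, 24493 and 56019 in the mutant ones, which overlap. Its make-up differed. Ccl2 and Ccl7 together took 3.52%, 9.84% and 10.3% of the sum in WT and 68.3%, 71.1% and 47.6% in the mutant. Cx3cl1 and Cxcl14 together took 81.4%, 34.8% and 41.9% in WT and 5.38%, 1.68% and 1.69% in the mutant. With 3 libraries a side, an exact permutation test of either share could not give a two-sided p below 0.1. The shares, and the orders per kb below, depend on the median transcript length that the counts were divided by. It was 466 bases for Cx3cl1, 1647 for Cxcl14 and 3013 for Cxcl12. In WT replicate 1 these ligands were at 252, 123 and 103 CPM.

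**Figure D2:**
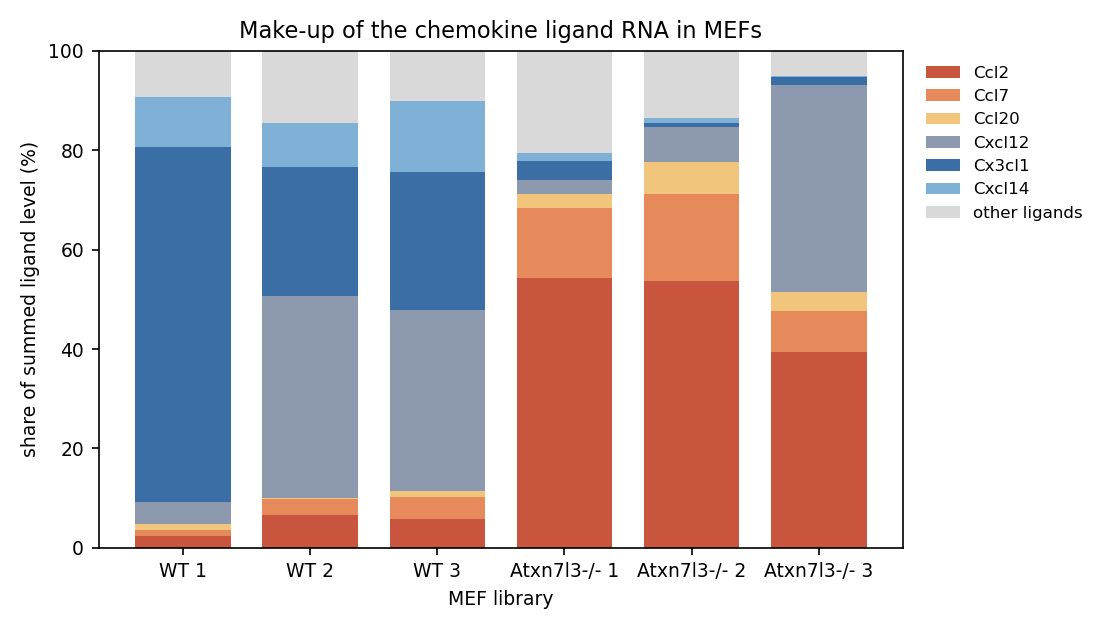
Stacked bars of the share of the summed ligand level (deposited normalized reads per kb, %) that each named ligand took in each of the 6 MEF libraries. Ccl2 and Ccl7 took 3.52% to 10.3% in WT and 47.6% to 71.1% in the libraries labelled Atxn7l3-/-, while the share of Cxcl12 varied from 2.85% to 41.6% over all 6.

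By median level per kb, the 5 highest ligands in MEFs were Ccl2, Cxcl12, Cx3cl1, Ccl7 and Cxcl14, at medians of 7989, 5063, 3891, 2806 and 1876 normalized reads per kb over the 6 libraries. This order pools genotypes that differ in 4 of the 5. Within libraries, Cx3cl1 was the highest ligand in WT replicate 1, Ccl2 in mutant replicates 1 and 2, and Cxcl12 in the remaining 3. Among the conventional receptors, Cx3cr1 and Cxcr6 had medians of 511 and 302 normalized reads per kb, and their ranges overlap.

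Cx3cr1, the receptor of Cx3cl1, was at 81.2, 42.9 and 26.9 CPM in WT and at 164, 47.2 and 23.4 CPM in the mutant. It did not differ beyond its spread (log2 fold change 0.63 ± 0.74, edgeR adjusted p = 0.574), and replicate 1 was the highest in both genotypes. Cxcr6, the receptor of Cxcl16, was at 19.0, 0.335 and 28.5 CPM in WT and at 9.76, 0.684 and 17.6 CPM in the mutant, low in replicate 2 of both genotypes (−0.78 ± 1.43, edgeR adjusted p = 0.733). Cxcl16 itself was at 13.7 to 28.6 CPM in WT and 17.6 to 33.4 CPM in the mutant (0.39 ± 0.37, edgeR adjusted p = 0.485). Xcl1 had 0 or 1 count in every MEF library.

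The macrophage ligands Ccl3, Ccl4, Ccl6 and Ccl9 were high in mutant replicate 1 alone. Ccl9 was at 9.01, 13.3 and 8.94 CPM in WT and at 61.1, 8.30 and 9.39 CPM in the mutant, and its log2 fold change of 1.33 ± 0.79 became −0.22 without that library. Ccl3 was at 4.64, 10.3 and 4.19 CPM in WT and at 37.7, 8.76 and 8.19 CPM in the mutant (1.51 ± 0.71, edgeR adjusted p = 0.191). That library also had the highest macrophage marker sum, with and without Lyz2. Ccl2 and Ccl20 were highest in mutant replicate 3, where the macrophage sum was the lowest of the mutant libraries. Ccl2 was at 506 CPM there and at 477 CPM in mutant replicate 1, and Ccl7 differed by 1.30-fold at most between mutant libraries. Among the WT libraries, Ccl2 and Ccl7 were highest in replicate 2, which had the highest macrophage sum, and Ccl20 in replicate 1. The part of macrophage RNA in all these values was not tested.

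The remaining tested members of the MEFs did not pass. Ccl25, Cxcl1 and Cxcl10 had log2 fold changes of 0.55, 1.16 and 0.02, and Ccl27a, Pf4, Ccr1 and Ccr3 of −0.83, −1.28, −1.80 and 0.03. Cxcl5 had a fitted value of −4.81 ± 1.84 that rested on WT replicate 2, at 31.6 CPM, since the other 5 libraries were at 0.138 to 0.844 CPM. The same library held 543 of the 613 counts of Cxcl15 and 161 of the 189 counts of Ppbp, whose genes lie in the same stretch of chromosome 5 as Cxcl5 and Pf4 (chr5:90759360-90905938).

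The number of calls moved with the libraries used. Without mutant replicate 3 they were 2 higher and 5 lower, without mutant replicate 1 they were 0 higher and 3 lower, without mutant replicate 2 they were 1 and 1, without WT replicate 1 they were 2 and 2, without WT replicate 2 they were 3 and 3, and without WT replicate 3, the library with Xist, they were 0 and 2. The 5 lower without mutant replicate 3 are not the 5 of the main test, since Cx3cl1 passed in 0 of these 6 fits. The share of all genes called in each fit is not given here, so these counts tell nothing of the members alone. The mesothelial marker sum separated the genotypes as the members that passed did, and its part in their changes was not tested.

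In mESCs, 13 of the 45 members could be tested and 11 were above 10 normalized reads per kb. The 32 untested members had at most 74 counts over the 5 libraries (Ccl2), and 22 of them had 10 counts or fewer. In Atxn7l3-/- mESCs compared with WT, 0 members were higher and 1 lower by edgeR, against 3.08% and 3.88% of the 17800 genes tested. At an unadjusted p under 0.05 there were 5, and DESeq2 called 1 higher and 3 lower, against 8.90% of all genes in each direction. The median log2 fold change was −0.35 for the members and 0.04 for all genes.

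The member that passed was Ccr4, the receptor of Ccl17 and Ccl22. It was at 2.06 and 2.01 CPM in WT (96 and 89 counts) and at 0.210, 0.477 and 0.317 CPM in Atxn7l3-/- (7, 20 and 12 counts), 6.09-fold lower without overlap (log2 fold change −2.59 ± 0.53, edgeR adjusted p = 0.0350). It missed the threshold without either WT library or without mutant replicate 1 (adjusted p 0.199, 0.205 and 0.109). Cxcr4, the other conventional receptor tested, was at 1.61 and 2.01 CPM in WT and at 0.632, 0.167 and 0.132 CPM in Atxn7l3-/- (−2.56 ± 0.72, edgeR adjusted p = 0.0705), and passed with DESeq2 (0.00815) and with no filter on low counts (0.0113). The receptors of these cells were few and low. Ccr8, next by level, had 2 to 10 counts in 3 libraries and 0 in 2.

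**Figure D3:**
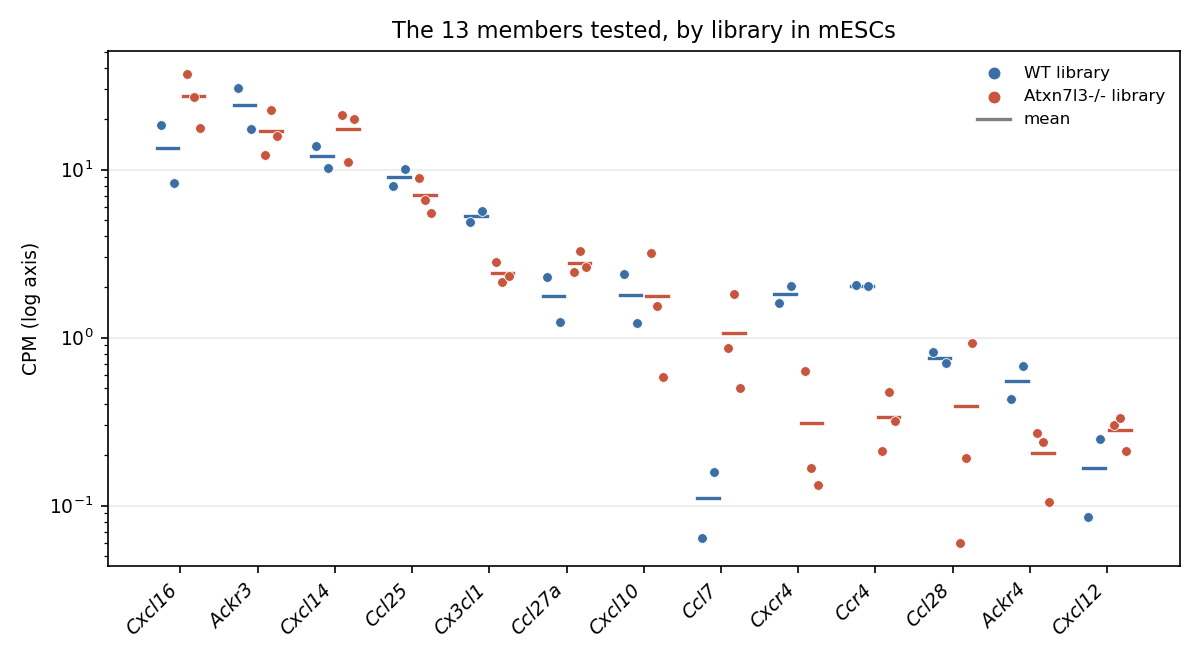
CPM on a log axis for the 13 members tested in mESCs, in 2 WT and 3 Atxn7l3-/- libraries, with a line at each mean and genes ordered by median level per kb. Ccr4, Cxcr4, Cx3cl1 and Ackr4 lie lower in every Atxn7l3-/- library, and Ccl7 and Ccl27a higher, and among these Ccr4 alone passed the test.

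The highest ligands per kb in mESCs were Cxcl16, Cxcl14, Ccl25, Cx3cl1 and Ccl27a, at medians of 425, 322, 315, 222 and 163 normalized reads per kb over the 5 libraries, and the ranges of neighbours in this order overlap. Cxcl16, a membrane-bound ligand, was at 18.5 and 8.28 CPM in WT and at 37.0, 27.0 and 17.7 CPM in Atxn7l3-/- (log2 fold change 1.02 ± 0.44, edgeR adjusted p = 0.169). Cx3cl1 was at 4.85 and 5.70 CPM in WT and at 2.83, 2.15 and 2.32 CPM in Atxn7l3-/-, without overlap (−1.12 ± 0.40, edgeR adjusted p = 0.117, DESeq2 adjusted p = 0.00594). Their receptors Cxcr6 and Cx3cr1 had at most 3 counts in any library.

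Ccl7 had 3 and 7 counts in WT mESCs and 29, 76 and 19 in Atxn7l3-/-, or 0.0644 and 0.158 against 0.872, 1.81 and 0.501 CPM. The libraries did not overlap, yet the test missed the threshold (3.23 ± 0.82, edgeR adjusted p = 0.0567), which it passed with DESeq2 (0.00426) and with no filter on low counts (0.00708). The fibroblast markers Col1a1, Col6a1 and Postn were also higher. Col1a2, Col3a1 and Lum had log2 fold changes of 2.71, 3.13 and 4.48 and did not pass. With the replicate block these 3 passed (edgeR adjusted p = 0.0110, 0.00626 and 0.0157). Pdgfra, Pdgfrb, Thy1 and Vim had values of 0.04, 0.13, 0.37 and −0.20 and did not pass, nor did Fn1 (0.99). The part of fibroblast markers was not tested. Ccl2, its neighbour, was not tested and had 8 and 10 counts in WT and 7, 44 and 5 in Atxn7l3-/-.

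Cxcl14, Ccl25, Ccl27a, Cxcl10, Cxcl12 and Ccl28 gave log2 fold changes of 0.53, −0.35, 0.66, −0.03, 0.75 and −0.94, with edgeR adjusted p of 0.364 or more. Ackr3, the highest atypical receptor at a median of 387 normalized reads per kb, was at 30.7 and 17.5 CPM in WT and at 12.2, 22.7 and 15.8 CPM in Atxn7l3-/- (−0.51 ± 0.37, edgeR adjusted p = 0.378). Ackr4 had 20 and 30 counts in WT and 9, 10 and 4 in Atxn7l3-/- (−1.43 ± 0.60, edgeR adjusted p = 0.160). Xcl1 and Xcr1 had 0 or 1 count in every mESC library.

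**Figure D4:**
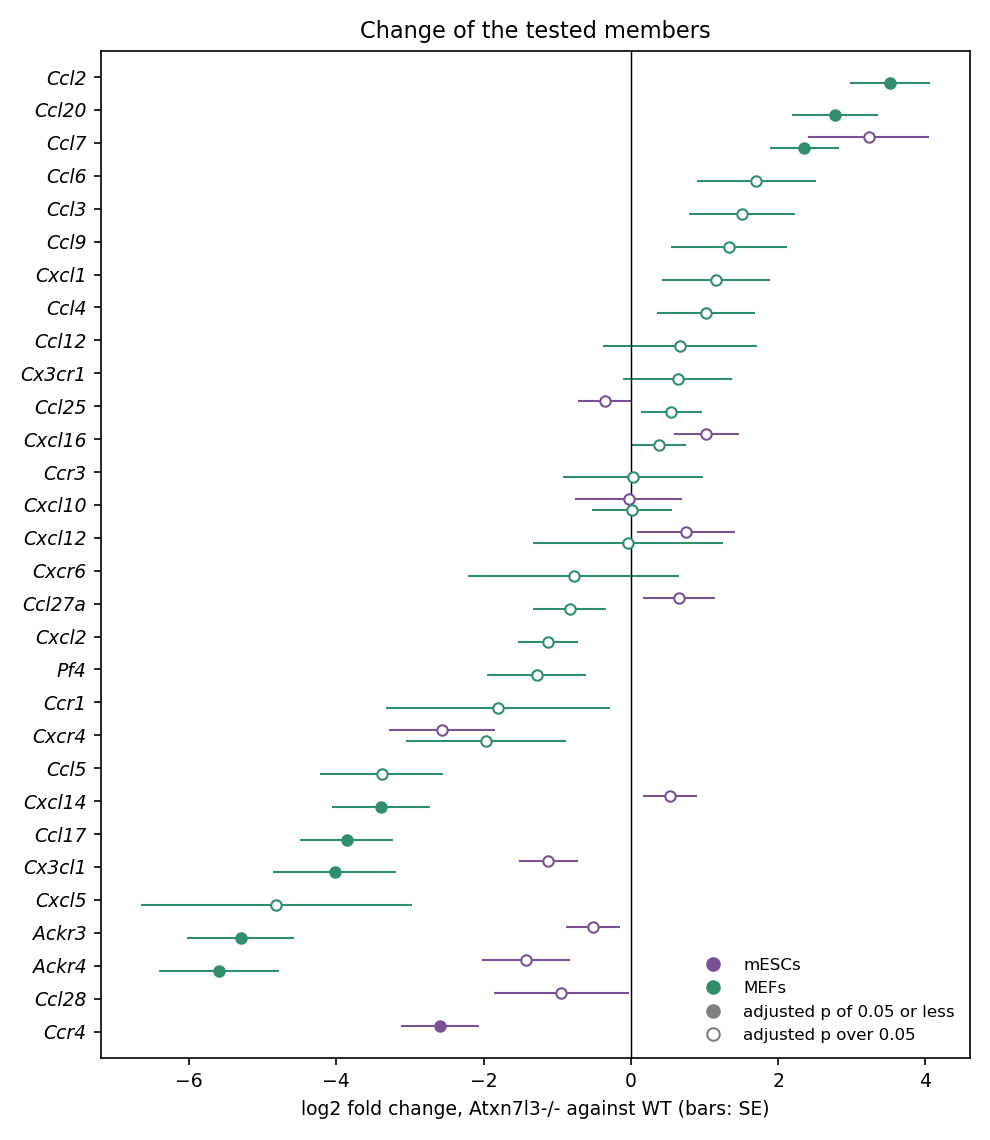
Log2 fold change of Atxn7l3-/- against WT with its SE for the members tested in MEFs (green, 1 member not drawn) or mESCs (purple), filled where the adjusted p was 0.05 or less. In MEFs 3 members lie to the right and 5 to the left with filled points, and in mESCs Ccr4 alone is filled.

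The genotype effect itself was compared between the cell types by an interaction term in 1 fit of all 11 libraries. It passed for 4 of 29 members, 13.8%, against 11.4% of the 19326 genes, so the share was near the background. Ackr3 fell in MEFs by more than it differed in mESCs (difference of log2 fold changes −4.74 ± 0.87, edgeR adjusted p = 0.0115), as did Ackr4 (−4.09 ± 1.05, edgeR adjusted p = 0.0340). For Cxcl14, at 10.2 to 13.9 CPM in WT and 11.2 to 21.02 CPM in Atxn7l3-/- mESCs, the difference was −3.83 ± 0.84 (edgeR adjusted p = 0.0209). Ccl3 passed at 7.28 ± 1.90 (edgeR adjusted p = 0.0430), but this rests on 14 and 2 counts in WT mESCs and 0 in the 3 Atxn7l3-/- ones, and it was lost with the replicate block (adjusted p = 0.0934). Ccl7 had a difference of −0.83 ± 0.91 (edgeR adjusted p = 0.563). For Ccr4 in MEFs there was nothing to compare, with at most 1 count in any library.

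WT MEFs and WT mESCs differed in many of the members that could be tested. Of 29 members tested, 21 were higher and 2 lower in MEFs by edgeR, against 26.8% and 27.1% of all genes, and the median log2 difference was 5.49 for the members and −0.00487 for all genes. The count filter kept a gene with enough counts in 1 cell type alone. Cx3cr1, Cxcl2, Ccl4, Ppbp and Ccr2, with 1 count each in WT mESCs, were tested through their MEF counts, which fixed their direction. Ccl2, Ccl20, Ccl3, Ccl5, Ccl6, Ccl9, Cxcl1, Cxcl5, Cxcr6 and Pf4 had 2 to 18 counts in WT mESCs and were untested within mESCs. They too entered through their MEF counts, so most of the members called higher were not open tests. Ccr4 and Ccl28 entered in the same way through mESCs. The counts and the median are therefore no test of the family as a whole. Cell type, medium, origin and passage cannot be told apart in this comparison.

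Cxcl12 averaged 723 ± 640 CPM in WT MEFs (SD, n = 3) and 0.151 ± 0.106 CPM in WT mESCs (SD, n = 2), on 15 counts in the latter (log2 difference 12.21 ± 2.07, edgeR adjusted p = 0.000740). The next 4 by size had 1 to 3 counts in WT mESCs, so ratios of counts are given with their 95% counting interval. These ratios were 5876 (1054 to 232117) for Cx3cr1, 1042 (187 to 41186) for Cxcl2, 644 (220 to 3123) for Cxcr6 and 484 (86.6 to 19155) for Ccl4. All 4 were at or below the floor in mESCs. The intervals leave out the spread between libraries. Cxcr6 ran from 0.335 to 28.5 CPM in WT MEFs, and its edgeR log2 difference was 9.06 ± 2.26 (SE). Of the members higher in mESCs, Ccr4 had 185 counts in WT mESCs and 2 in WT MEFs, 112-fold (30.5 to 930), and Ccl28, an epithelial ligand, had 69 and 1, 83.4-fold (14.5 to 3340).

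No difference could be called for Ackr3 between the WT cell types, at 31.4 ± 17.2 CPM in MEFs and 21.6 ± 8.04 CPM in mESCs (log2 difference 0.54 ± 0.60, edgeR adjusted p = 0.467). Cxcl16, Ccl25, Ccl27a, Cxcl10 and Cxcl9 did not pass either. Cx3cl1 and Cxcl14, both high in WT MEFs, were 5.10 ± 0.85 and 3.77 ± 0.70 log2 units above WT mESCs (edgeR adjusted p = 0.000677 and 0.00124).

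**Figure D5:**
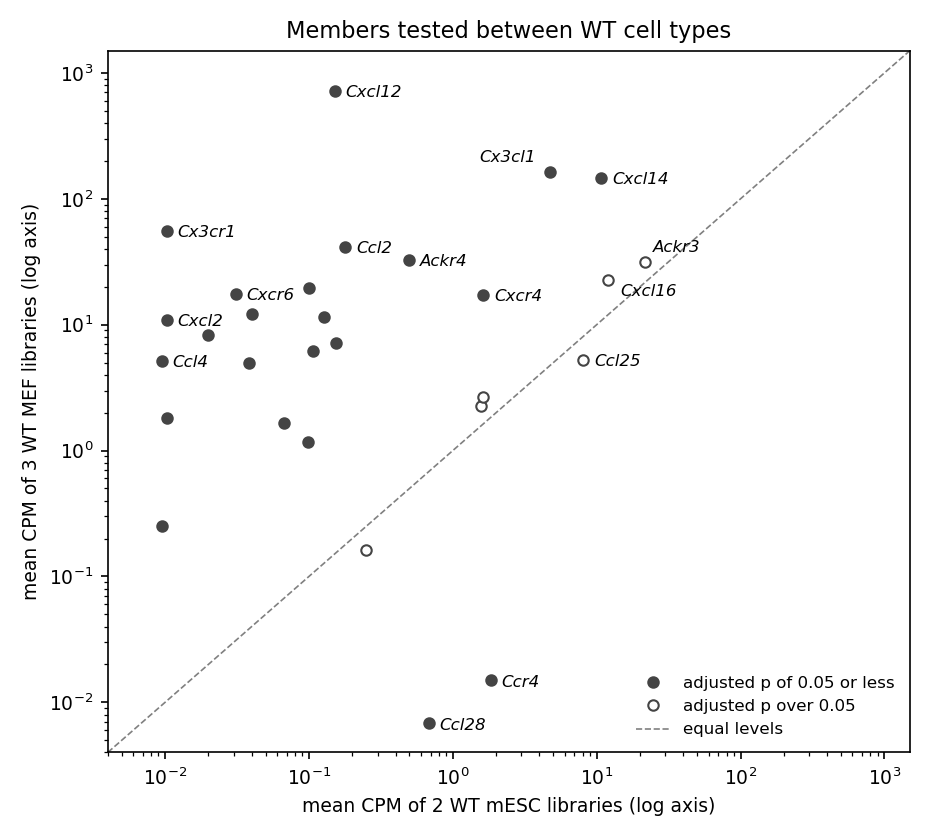
Mean CPM in 3 WT MEF libraries against that in 2 WT mESC libraries, on log axes, for the 29 members tested, with filled points where the adjusted p was 0.05 or less and a dashed line at equal levels. The 21 members higher in MEFs lie above the line, and Ccr4 and Ccl28 lie far below it.

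Genes that act with the chemokines were counted by the same tests, against the same shares of all genes (by edgeR 5.01% higher and 4.39% lower in MEFs, 3.08% and 3.88% in mESCs). Of 20 genes of the NF-kB pathway, 0 passed in mESCs by edgeR (3 at an unadjusted p under 0.05, 1 by DESeq2). In MEFs 0 were higher and 1 lower, Map3k14 (log2 fold change −1.98), which encodes the kinase NIK. With the replicate block 2 were higher, and DESeq2 called 4. This list depended on the GC correction in MEFs. With it Map3k14 missed the threshold (edgeR adjusted p = 0.0649). Nfkb2, Relb, Bcl3 and Myd88 then passed (edgeR adjusted p = 0.0419, 0.0494, 0.0447 and 0.0457). Among cytokines and receptors known to induce chemokines, 4 of 25 (16%) were higher and 1 lower in MEFs, where DESeq2 called 8, and 0 of 22 passed in mESCs by edgeR (6 at an unadjusted p under 0.05, 5 by DESeq2). They included Tlr4, the endotoxin receptor (1.99), and Tnfsf11, which encodes RANKL (−4.32). The median of this list was 0.12 in MEFs, against −0.06 for all genes.

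Among the genes for signalling from chemokine receptors, 1 of 29 passed in MEFs, Rgs5, a regulator of G proteins, which was lower (log2 fold change −5.44). With the replicate block 1 was higher and 4 lower, and DESeq2 called 5. In mESCs, 2 of 24 were higher, the G protein subunits Gng2 (1.51) and Gng12 (0.89), and DESeq2 called 3. Among genes for processing or binding chemokines, 2 of 24 (8.33%) were higher in MEFs, 5 were higher and 2 lower with the block, and DESeq2 called 10. Dpp4, the protease that clips the ends of chemokines such as Cxcl12, averaged 0.565 CPM in WT and 148 CPM in the mutant (8.06), and the heparan sulphate carrier Sdc4 averaged 221 and 1375 CPM (2.64). In mESCs 3 of 21 (14.3%) were higher and 1 lower, and DESeq2 called 6. Sdc4 (1.63), Bgn (1.88) and Sdc1 (1.16) were higher and Dpp4 was lower (−1.23), the opposite direction to MEFs. Of the chemokine-like genes outside the naming rule, 1 of 9 passed in MEFs, the chemerin receptor Cmklr1 (−3.57), 2 were lower with the block and DESeq2 called 4, and 0 of 6 passed in mESCs by edgeR (1 at an unadjusted p under 0.05, 0 by DESeq2).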

How the data were processed

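Per the labels and the study's methods, the authors prepared stranded poly(A)+ libraries, trimmed adapter, poly(A) and low-quality bases, mapped reads to mm10 with STAR 2.5.3a and counted them per gene; the submitters' processing notes also name bcl2fastq 2.17.1.14, cutadapt 1.10, HTSeq 0.6.1p1 and DESeq2 1.16.1. The authors deposited raw counts, and a normalized signal (counts divided by DESeq2 size factors and by the median transcript length in kb), in 1 table per cell type. The authors' fold changes and p-values, also in these tables, and an unnamed column were not used. One further WT mESC dataset, left out by the study after principal component analysis, was not analysed here.

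Members and lists were chosen with earlier results of these data known. Counts were filtered with filterByExpr, normalized by TMM and tested with edgeR 4.0.16 (R 4.3.3) by its quasi-likelihood test, separately per cell type, with Benjamini-Hochberg adjustment over all genes tested. CPM uses TMM library sizes, and SE is the log2 fold change divided by the square root of F. The interaction and the WT comparison came from 1 fit of all 11 libraries over genes listed in both tables, which were deposited separately. Ratios carry exact 95% intervals for counting error only. Named members were those past the threshold, the highest 5 ligands and 3 receptors per cell type, 4 ligand and receptor axes, and the 5 largest WT differences each way. In other lists they were the 3 largest changes that passed. Of the genes these rules name, 1 receptor and 1 gene of the other lists are counted but not reported here by value. Ccl5, Cxcl2, Cxcl5, Cxcl15, Ppbp, Ackr1, the macrophage ligands and the NF-kB genes called with the GC correction were described after their values were seen. Same-numbered MEF samples deviated together (r = 0.473, 0.161 and 0.240 over 15958 genes). The pairing comes from the replicate numbers of the labels alone. On simulated MEF data, 86% of 16-fold and 46% of 4-fold changes were recovered, with 4 false calls among 15621 genes. On simulated mESC data 100% and 69% were recovered, with 23 false calls among 17354. Changes were simulated only in genes with a mean above 1 CPM, so recovery at lower levels was not measured. Alternatives were RLE normalization, other count filters, DESeq2 1.42.0, a replicate block, a correction for transcript GC content (added after the data were seen), 1 fit of all libraries, the study's thresholds and leaving out each library. Promoter windows came from RefSeq (GRCm38.p6), and 42 of 55 members matched by symbol.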

Additional observations from a re-analysis of the deposited data

Results flagged for a closer look

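The genotype effect differed between MEFs and mESCs by the interaction test for 4 of 29 members (13.8%), against 11.4% of all genes tested. The log2 fold change in MEFs minus that in mESCs was −4.74 ± 0.87 (SE) for Ackr3 (edgeR adjusted p = 0.0115), −3.83 ± 0.84 for Cxcl14 (edgeR adjusted p = 0.0209), −4.09 ± 1.05 for Ackr4 (edgeR adjusted p = 0.0340) and 7.28 ± 1.90 for Ccl3 (edgeR adjusted p = 0.0430). Ackr3 and Ackr4 were lower in every library labelled Atxn7l3-/- than in every WT library in MEFs, and so was Cxcl14. In the 11 fits that each left out 1 library, Ackr3 passed in 9, Cxcl14 in 8, Ackr4 in 5 and Ccl3 in 2. The value for Ccl3 depends on how counts of 0 in 3 mESC libraries are treated.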

How the results depend on the processing

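Of the MEF counts of 3 higher and 5 lower members, DESeq2 gave 10 lower, the GC correction 2 higher and 3 lower (Ccl7, Cx3cl1 and Cxcl14 missing the threshold), the GC correction with the replicate block 1 higher, and requiring 10 counts or more throughout 3 lower. Leaving out 1 library gave 0 to 3 higher and 1 to 5 lower. The mESC counts of 0 higher and 1 lower became 1 higher and 3 lower with DESeq2 and with no filter on low counts, 1 higher with the GC correction, 2 higher with it and the replicate block, and 0 lower in 1 fit of all 11 libraries or when 10 counts or more were required throughout. Leaving out 1 library gave 0 to 1 higher and 0 to 1 lower. In mESCs same-numbered samples did not deviate together (r = 0.00777 and −0.172), and the replicate block gave 2 higher members there. The interaction counts of 1 higher and 3 lower became 2 higher with DESeq2 and 0 higher with the replicate block, and 0 to 2 and 0 to 4 without 1 library. The WT counts of 21 and 2 ranged from 16 to 21 and stayed at 2 without 1 library, and a replicate block could not be fitted for that comparison. Members expressed in mESCs numbered 22 above 1 normalized read per kb and 7 above 10 in every library, against 11. Beyond Ccl5, Cxcr4 and the interaction of Ccl3, the block changed no other call among the members in MEFs. The cause of these shifts was not tested. For the GC correction, the other count filters and the fits without 1 library, shares of all genes are not given here. Those member counts therefore have no background beside them.

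Among the single members reported, the direction turned for several, none of which had passed. For Cxcl10 in mESCs the log2 fold change was 0.38 with the block and with the block and GC correction, and −0.75 to 0.52 without 1 library. In MEFs, without 1 library, it ran from −0.22 to 1.77 for Ccl9, from −0.50 to 1.17 for Cx3cr1 and from −2.66 to 0.85 for Cxcl12. With the GC correction in MEFs, it went from 0.03 to −0.64 for Ccr3 and from 0.02 to −0.11 for Cxcl10. For Ccl12 in MEFs it went from 0.67 to −0.15 with that correction and the block. No member that passed turned direction under any alternative run. With 3 libraries a side and a 46% recovery of 4-fold changes, a member that did not pass may still differ by that much.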
